A study of Mus musculus with 8 samples.

Results

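Cadherins and protocadherins are the calcium-dependent adhesion molecules through which neighbouring cells recognise and hold each other. They were taken as every gene entry named Cdh followed by a number, or Pcdh followed by a number or by a, b or g, which gave 94 of the 23699 entries in each library. The set held 5 type I classical cadherins, 13 type II classical cadherins, 5 other cadherins, 12 non-clustered protocadherins, and 59 clustered protocadherins, namely 15 alpha, 22 beta, 12 gamma A, 7 gamma B and 3 gamma C entries. Of the 94 members, 62 lie on chromosome 18, most of them in the protocadherin clusters.

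Polyadenylated RNA was sequenced from mouse pluripotent cells of 2 states, with 4 libraries each. Epiblast stem cells (mEpiSC) stand for the primed state, found after implantation, and their medium held the growth factor FGF2. Replicate 1 was the line EpiSC5, replicates 2 and 3 were EpiSC7, and replicate 4 was EpiSC9. Embryonic stem cells (mESC) stand for the naive state, found before implantation, and their medium held the cytokine LIF. Replicates 1 and 2 were the line ESF122, and replicates 3 and 4 were ESF175/1. Both states were kept in serum replacement medium on irradiated mouse embryonic fibroblasts and were separated from that feeder layer before RNA extraction. Levels are the deposited FPKM (fragment counts corrected for transcript length and for library size), which can be compared between genes of different length. A log2 fold change is the mean of log2(FPKM + 1) in mEpiSC less that in mESC; the added 1 makes the change of low genes look smaller than it is. Whether libraries of the same line were separate cultures is not stated by any label, and the p-values cover just the spread among these libraries, which may be technical.

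Naive marker genes separated the states, and primed markers did so in part. The summed level of 6 naive markers was 4.50 to 7.74 FPKM in mEpiSC and 471 to 860 FPKM in mESC, and all 6 fell (limma, adjusted p under 0.05). Of 6 primed markers 4 rose and none fell, while Dnmt3b and Pou3f1 did not pass; their summed level overlapped, at 167 to 1237 FPKM in mEpiSC and 104 to 270 FPKM in mESC. The library mESC 2 stood apart in the primed markers T, Fgf5 and Cer1, but not in the other primed markers. T was at 38.8 FPKM there, above 3 of the 4 mEpiSC libraries (20.9 to 46.8 FPKM) and against 1.95 to 2.94 FPKM in the other mESC. Fgf5 (8.61 FPKM) and Cer1 (6.29 FPKM) were also higher in mESC 2 than in the other mESC, which reached at most 1.64 and 0.632 FPKM. Otx2, Pou3f1 and Dnmt3b were highest among mESC in mESC 1, at 27.4, 15.7 and 194 FPKM, against 19.7, 12.3 and 185 FPKM in mESC 2. Without mESC 2, 13 of the 20 tested cadherins and protocadherins again rose and 4 fell, and the log2 fold change was 3.46 for Cdh2, 1.65 for Pcdh8 and 1.95 for Pcdh1, against 3.23, 1.54 and 1.51 with it. The intervals of the values implied 25300000 to 38600000 fragments per mEpiSC library and 24800000 to 38300000 per mESC library. Fibroblast markers were uneven. The summed level of 14 of them was 504, 277, 170 and 59.95 FPKM in mEpiSC 1 to 4 and 274, 37.9, 52.9 and 6.59 FPKM in mESC 1 to 4; 4 of the 12 tested rose, none fell, and the collagen gene Col1a1 alone reached 159 FPKM in mEpiSC 1 and 78.4 FPKM in mESC 1. In bulk RNA, fewer cells of a type and less RNA per cell cannot be told apart.

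Classical cadherins bind the same cadherin on the facing cell, and inside the cell they bind catenins that link to actin. E-cadherin (Cdh1) is the adhesion molecule of epithelia, of the inner cell mass and of the epiblast, and N-cadherin (Cdh2) replaces it as cells leave the primitive streak as mesoderm. Clustered protocadherins are best known in neurons, where each cell chooses a few variable exons from large arrays, joined in the alpha and gamma clusters to shared constant exons.

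Across the family, 20 members reached 1 FPKM in at least 4 libraries and were tested, and 74 did not. Of the 20, 13 rose and 4 fell in mEpiSC (limma on log2(FPKM + 1), Benjamini-Hochberg adjusted p under 0.05), a call made for 37.3% of the 11556 genes tested, of which 23.1% rose and 14.2% fell. Scaling the libraries by median ratios gave 2128 genes of the whole table that rose and 2353 that fell, against 2665 and 1640 as deposited, and quantile normalization gave 2188 and 2207. Because members high in only 1 state can pass that filter through it, the same fit was read without the filter: 26 of 94 rose and 9 fell, against 16.9% and 11.3% of 19479 genes (28.2% in either direction). The median log2 fold change of the 94 members was 0.13 and that of all 19479 genes 0.02. Cdh1 had the highest mean level in both states. Without Cdh1, the summed level of all members was 115 to 147 FPKM in mEpiSC and 34.5 to 59.1 FPKM in mESC, with no overlap.

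**Figure D1:**
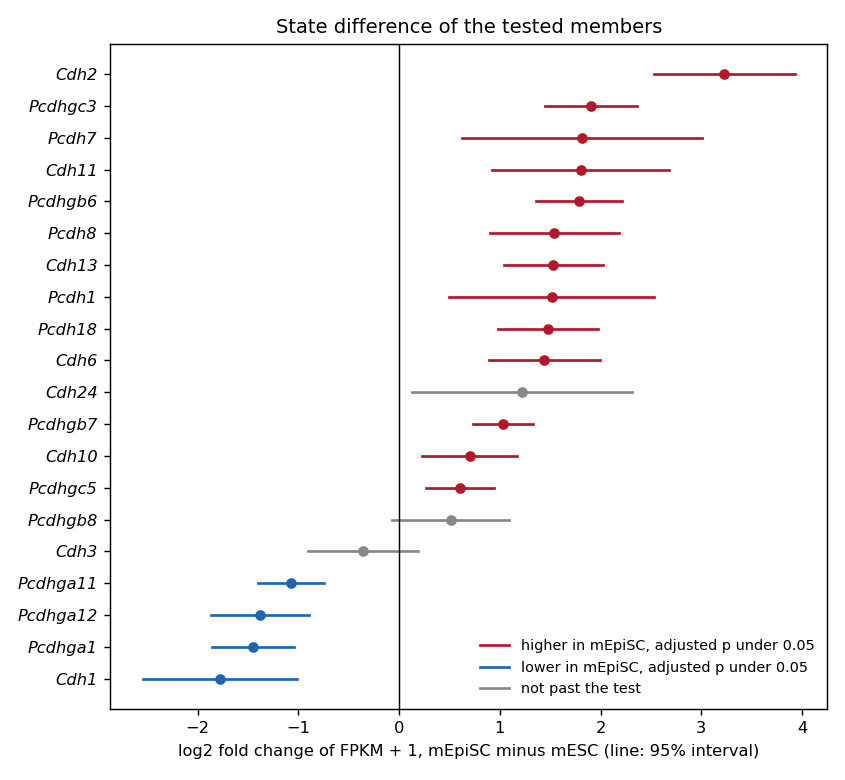
Log2 fold change of FPKM + 1 (x axis, mEpiSC minus mESC) for each of the 20 tested members (y axis), with lines for the 95% interval. Cdh2 lies farthest to the right at 3.23 and Cdh1 farthest to the left at −1.78; grey marks the 3 members that did not pass the test.

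E-cadherin fell and N-cadherin rose. Cdh1 (chromosome 8, 109127268 to 109194146, mm9) was at 68.2, 18.3, 23.9 and 32.5 FPKM in mEpiSC 1 to 4, against 114, 119, 109 and 101 FPKM in mESC 1 to 4. Every mEpiSC library lay below every mESC library, and EpiSC5 kept the most. The log2 fold change was −1.78 (SE 0.34, limma, adjusted p = 0.0039). Means were 35.7 ± 22.5 FPKM in mEpiSC and 110.6 ± 7.51 FPKM in mESC (SD, n = 4 libraries each, from 3 mEpiSC lines and 2 mESC lines).

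Cdh2 (chromosome 18, 16747386 to 16967558) was at 32.9, 18.7, 22.9 and 12.6 FPKM in mEpiSC, against 1.06, 2.72, 0.876 and 0.969 FPKM in mESC. The groups were well apart, and the highest of the mESC libraries was mESC 2. Its log2 fold change of 3.23 (SE 0.31; limma, adjusted p = 1.8e-04) was the largest in size of the 20 tested members. The Cdh1 to Cdh2 ratio was 2.07, 0.974, 1.04 and 2.58 in mEpiSC 1 to 4, against 108, 43.6, 124 and 104 in mESC 1 to 4. E-cadherin was still 40.8% to 62.9% of the summed type I level in mEpiSC, against 88.3% to 93.1% in mESC.

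Fibroblasts also make N-cadherin, and the summed fibroblast level, though higher on average in mEpiSC, overlapped between states. mEpiSC 2 and mESC 1 had nearly the same summed fibroblast level, 277 FPKM in mEpiSC 2 and 274 FPKM in mESC 1, while Cdh2 was at 18.7 FPKM in mEpiSC 2 and 1.06 FPKM in mESC 1. This is 1 pair of libraries, chosen for its like sums, and single markers differed in both directions. Col5a1 was at 12.8 FPKM in mEpiSC 2 and 7.45 FPKM in mESC 1, and Col3a1 at 48.7 FPKM in mEpiSC 2 and 61.9 FPKM in mESC 1. Within mEpiSC, Cdh2 and the summed fibroblast level were both highest in mEpiSC 1 and lowest in mEpiSC 4. Within mESC, Cdh2 was highest in mESC 2 and the fibroblast level in mESC 1. The part of fibroblast RNA in the rise of Cdh2 was not tested further.

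P-cadherin, Cdh3 (chromosome 8, 109034791 to 109080808), is the neighbour of Cdh1 on chromosome 8. It was at 10.1, 6.62, 5.16 and 5.76 FPKM in mEpiSC, against 8.69, 12.3, 9.74 and 5.86 FPKM in mESC. The groups overlapped, and the log2 fold change of −0.36 had a 95% interval of −0.91 to 0.19 (limma, adjusted p = 0.28). R-cadherin, Cdh4, stayed below the filter with a highest value of 1.04 FPKM in mEpiSC 2, and Cdh15, the muscle cadherin, did not pass 0.412 FPKM.

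**Figure D2:**
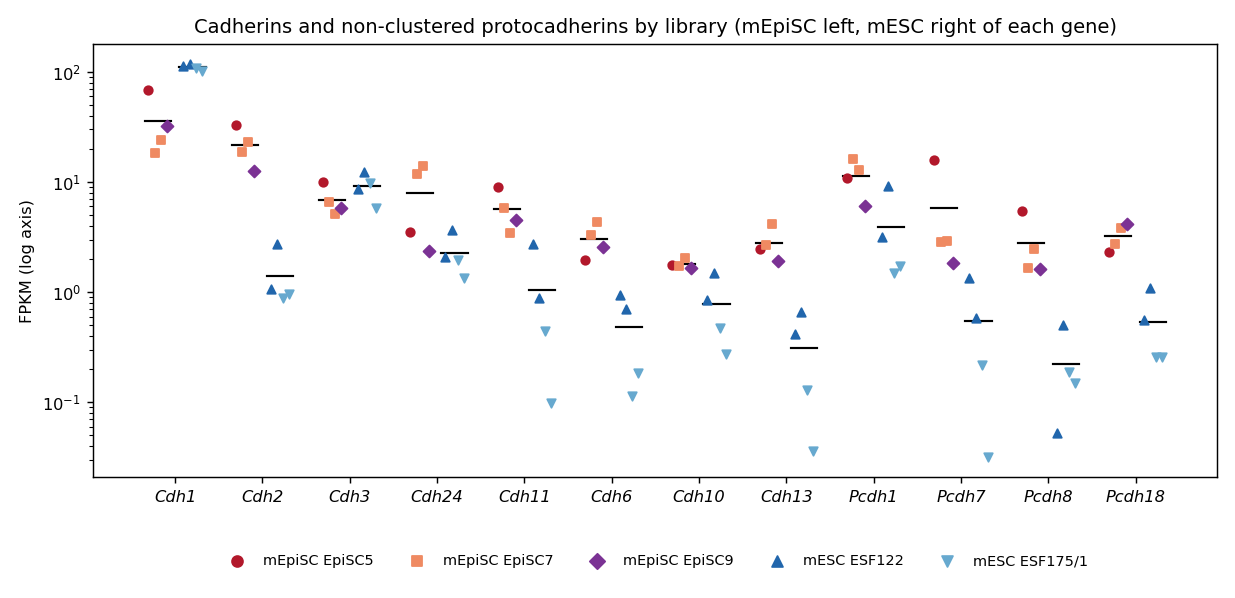
FPKM of 12 cadherins and non-clustered protocadherins (x axis) in each library on a log axis, with mEpiSC to the left of mESC for each gene and a bar at the mean of 4. Cdh1 is the 1 gene here whose mEpiSC points all lie below its mESC points; Cdh3, Cdh24 and Pcdh1 overlap.

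Type II cadherins differ from type I in their adhesive interface and are known from mesenchyme and nervous system. Of 13, 4 were tested, of which 3 rose and none fell, against 23.1% and 14.2% of all genes. In the fit without the filter 5 of 13 rose and none fell, against 16.9% and 11.3%. Cdh11 (OB-cadherin, abundant in fibroblasts and mesenchyme; chromosome 8, 105156895 to 105309011) was at 9.02, 5.77, 3.45 and 4.47 FPKM in mEpiSC, against 2.74, 0.892, 0.441 and 0.0993 FPKM in mESC. The groups did not overlap, and in each state the library with the most fibroblast RNA, replicate 1, had the most Cdh11. The log2 fold change was 1.80 (SE 0.39; limma, adjusted p = 0.0068). In mEpiSC 2 and mESC 1, the pair chosen for like fibroblast sums, Cdh11 was at 5.77 and 2.74 FPKM. The part of fibroblast RNA in its rise was not tested.

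Cdh6 (K-cadherin, of kidney and neural crest; chromosome 15, 12963955 to 13103394) was at 1.95, 3.27, 4.31 and 2.57 FPKM in mEpiSC, against 0.944, 0.710, 0.114 and 0.183 FPKM in mESC. It was highest in both EpiSC7 libraries, and it rose by log2 1.44 (SE 0.25; limma, adjusted p = 0.0023). Cdh10, a neural cadherin whose gene lies on the same chromosome, was at 1.67 to 2.03 FPKM in mEpiSC and 0.274 to 1.50 FPKM in mESC. Its rise was smaller (log2 0.70, SE 0.21; limma, adjusted p = 0.027), and leaving out any 1 library other than mESC 2 and mEpiSC 4 ended the call, with adjusted p from 0.0501 to 0.079, as did a random block for the cell line (0.065) and leaving out both replicate 4 libraries (0.059).

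Cdh24 (chromosome 14, 55250829 to 55260201) followed the line more than the state. It was at 3.49, 11.9, 14.1 and 2.38 FPKM in mEpiSC, against 2.07, 3.68, 1.98 and 1.34 FPKM in mESC. Both EpiSC7 libraries were high, whereas EpiSC5 and EpiSC9 lay within the range of mESC. The state difference did not pass (log2 1.22, SE 0.48; limma, adjusted p = 0.076). It passed with the replicate number as a block (adjusted p = 0.027), with 1 mean per line (0.0063), without mEpiSC 4 (0.018) and without both replicate 4 libraries (0.039).

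Among type II members below the filter, VE-cadherin, Cdh5, the junction cadherin of endothelium, was at 0.111, 1.28, 3.21 and 1.36 FPKM in mEpiSC, against 0.0214, 0.0274, 0.0164 and 0.0466 FPKM in mESC. It was thus near 0 in all mESC and in EpiSC5, and highest in an EpiSC7 library. Some endothelial markers moved with it. In mEpiSC 1 to 4 the summed level of 6 was 0.426, 6.86, 18.6 and 10.6 FPKM, against 1.78 to 3.89 FPKM in mESC. The VEGF receptor gene Kdr was at 5.16 FPKM in mEpiSC 3, and Cldn5 at 9.07 FPKM. Tek went the other way, at 0.174 to 0.967 FPKM in mEpiSC and 0.670 to 2.02 FPKM in mESC, and Esam was highest in mESC 4, at 2.01 FPKM. None of the 6 markers reached 1 FPKM in 4 libraries. Cdh22 was at 0.383 to 1.203 FPKM in mEpiSC and 0.0454 to 0.180 FPKM in mESC. The other 7 type II members below the filter did not reach 1 FPKM in any library.

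Of the 5 other cadherins only Cdh13 was expressed. T-cadherin, which is anchored to the membrane by a lipid and lacks a cytoplasmic tail (chromosome 8, 120807655 to 121847348), was at 2.48, 2.70, 4.12 and 1.92 FPKM in mEpiSC, against 0.416, 0.665, 0.130 and 0.0363 FPKM in mESC. No values overlapped, and it rose by log2 1.53 (SE 0.22; limma, adjusted p = 0.0011). Cdh16, Cdh17, Cdh23 and Cdh26 were at most at 0.083 FPKM.

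Non-clustered protocadherins are single genes whose products regulate cell movement and sorting. Of 12, 4 were tested and all 4 rose, against 23.1% of all genes. In the fit without the filter 4 of 12 rose and none fell, against 16.9% and 11.3%. The median log2 fold change of the 12 was 0.14, against 0.02 for all genes. Pcdh8, the mouse relative of the paraxial protocadherin that acts in gastrulation movements and somite formation (chromosome 14, 80166579 to 80171119), was at 5.41, 1.65, 2.48 and 1.63 FPKM in mEpiSC, against 0.0531, 0.506, 0.188 and 0.149 FPKM in mESC. All mEpiSC libraries were higher, most of all EpiSC5. Within mESC the highest was mESC 2, as for Cdh2, Pcdh1 and the markers T, Fgf5 and Cer1. That library was also the highest mESC for Cdh1, Cdh3 and Cdh24, for which no rise was called. The same held for Cdh10, Cdh13, Pcdh18 and Pcdhgc3, which rose. The part of such marker RNA in these levels was not tested. The log2 fold change of Pcdh8 was 1.54 (SE 0.28, limma, adjusted p = 0.0034).

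Pcdh7 (NF-protocadherin; chromosome 5, 58109260 to 58523479) was at 15.9, 2.85, 2.91 and 1.83 FPKM in mEpiSC, against 1.35, 0.577, 0.219 and 0.0316 FPKM in mESC. EpiSC5 was far above the other lines. The rise of log2 1.82 (SE 0.53; limma, adjusted p = 0.025) did not pass without mESC 3 (adjusted p = 0.067), without mESC 4 (0.061) or with a pseudocount of 5 (0.072). EpiSC5 also had the highest summed level of the fibroblast markers and of the markers listed for primitive endoderm. In mEpiSC 1 to 4 the sum of these 6 endoderm markers was 78.5, 12.9, 20.3 and 12.99 FPKM, against 3.05 to 5.52 FPKM in mESC. Of the 6, Sox7 was highest in mEpiSC 3, at 0.919 FPKM, against 0.519 FPKM in mEpiSC 1. The sum alone does not name a cell type. The part of such RNA in the level of Pcdh7 was not tested.

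Pcdh18 (chromosome 3, 49547218 to 49561238) was at 2.31, 2.74, 3.84 and 4.13 FPKM in mEpiSC, against 0.556, 1.10, 0.255 and 0.256 FPKM in mESC. The single library of EpiSC9, with the lowest summed fibroblast level of the mEpiSC, was highest. The part of fibroblast RNA in the level of Pcdh18 was not tested. Its rise was log2 1.48 (SE 0.22, limma, adjusted p = 0.0013). Pcdh1, an epithelial and endothelial protocadherin (chromosome 18, 38356348 to 38369416), was at 10.8, 16.04, 12.7 and 6.02 FPKM in mEpiSC, against 3.18, 9.29, 1.50 and 1.73 FPKM in mESC. mESC 2 overlapped mEpiSC, and the rise of log2 1.51 (SE 0.45; limma, adjusted p = 0.028) did not pass when any 1 library other than mESC 2 and mEpiSC 4 was left out (adjusted p 0.056 to 0.079), or with a random block for the cell line (0.075).

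Below the filter, Pcdh19, the X-linked gene of a female-limited epilepsy in humans, was at 0.527 to 1.71 FPKM in mEpiSC and 0.131 to 0.587 FPKM in mESC. The other 7 non-clustered members, Pcdh9, Pcdh10, Pcdh11x, Pcdh12, Pcdh15, Pcdh17 and Pcdh20, did not reach 1 FPKM.

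Promoters are shown for the 2 members that rose and whose RefSeq promoter held a searched motif. Of the 20 tested members 6 had a promoter of 300 bases in the table (GRCm38.p6), running from 250 bases before the start to 50 after it. The motifs were the octamer of POU factors (ATGCAAAT or ATTTGCAT), the E-box of Snail and Zeb factors (CAGGTG or CACCTG) and the OTX site (TAATCC or GGATTA), each searched on both strands, none of them contained in another. Capitals mark the matches, the octamer in Pcdh8 (chr14:79771263-79771562, minus strand) and the E-box in Pcdh7 (chr5:57717831-57718130, plus strand):
Pcdh8: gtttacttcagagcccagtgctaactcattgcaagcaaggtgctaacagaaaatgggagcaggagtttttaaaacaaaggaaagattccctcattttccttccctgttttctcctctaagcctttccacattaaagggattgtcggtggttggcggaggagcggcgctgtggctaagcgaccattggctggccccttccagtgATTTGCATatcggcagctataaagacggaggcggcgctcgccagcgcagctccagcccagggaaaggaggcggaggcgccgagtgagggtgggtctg
Pcdh7: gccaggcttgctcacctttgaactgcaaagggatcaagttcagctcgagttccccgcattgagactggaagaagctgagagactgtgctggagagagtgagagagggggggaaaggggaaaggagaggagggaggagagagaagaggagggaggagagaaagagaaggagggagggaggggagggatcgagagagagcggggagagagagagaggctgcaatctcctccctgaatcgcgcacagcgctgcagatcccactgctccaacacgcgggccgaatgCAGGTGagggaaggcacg
The octamer occurs in 1.74% of all 32851 promoters of that length, the E-box in 20.2% and the OTX site in 7.06%. The windows of Cdh6, Cdh10, Cdh24 and Pcdh18 held none of the 3 motifs. They ranged from an AT-rich window at Cdh10 (37.7% G+C) to a G+C-rich window at Cdh24 (73.3%), against a median of 52.7% over all promoters.

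The clustered protocadherins changed in composition. In the gamma cluster on chromosome 18, whose entries span 37821599 to 38001526, the summed level was 39.8, 42.8, 45.5 and 44.6 FPKM in mEpiSC, against 19.7, 21.0, 19.6 and 21.5 FPKM in mESC. Within each state the sum varied little. What made it up differed: gamma A entries were 5.80% to 10.4% of the sum in mEpiSC and 39.6% to 57.3% in mESC, gamma B entries 21.2% to 31.4% and 10.2% to 20.9%, and gamma C entries 61.9% to 73.0% and 21.8% to 50.1%. Each of the 3 shares separated the states without overlap.

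These entries share their 3-prime constant exons. Of the 50-base windows of their GENCODE transcripts, 20.1% to 65.3% (median 44.9%) also occur in other genes, so the division of reads among them is an estimate and the level of each is uncertain; for the 12 tested members outside the cluster the share was at most 3.23%.

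Pcdhgc3, a C-type isoform that lies after the A and B exons (chromosome 18, 37966064 to 38001526), was the most abundant protocadherin in both states. It was at 22.3, 24.3, 26.2 and 29.8 FPKM in mEpiSC, against 6.32, 9.27, 5.26 and 4.34 FPKM in mESC. The groups were far apart, and the log2 fold change was 1.90 (SE 0.20; limma, adjusted p = 2.7e-04). The other C-type entry tested, Pcdhgc5, rose by log2 0.60 (SE 0.15; adjusted p = 0.013, limma), at lower levels of 1.07 to 1.45 FPKM in mEpiSC and 0.233 to 0.793 FPKM in mESC. Pcdhgc4, below the filter, was at 0.861 to 1.39 FPKM in mEpiSC and 0.118 to 0.735 FPKM in mESC.

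Gamma A entries went down. Pcdhga1, the first exon of the array, was at 0.0871, 0.0953, 0.0866 and 0.0392 FPKM in mEpiSC, against 1.58, 1.24, 2.56 and 2.64 FPKM in mESC. The mEpiSC values rest on 7 to 15 implied fragments a library and the mESC values on 212 to 314. It fell by 1.45 on the log2 scale (SE 0.18; limma, adjusted p = 5.7e-04). Pcdhga12, the last A exon, was at 0.314, 0.258, 0.208 and 0.0395 FPKM in mEpiSC, against 1.86, 1.15, 2.86 and 3.06 FPKM in mESC (log2 −1.38, SE 0.21). Pcdhga11 was at 0.0774 to 0.492 FPKM in mEpiSC and 1.39 to 1.84 FPKM in mESC (log2 −1.07, SE 0.14). Within mESC, Pcdhga1 and Pcdhga12 were higher in both ESF175/1 libraries than in both ESF122 libraries. Without the filter, 8 of the 12 gamma A entries fell and none rose, against 11.3% of all genes that fell.

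Gamma B entries, which alternate with the A exons along the array, went the other way. Pcdhgb6 was at 3.86, 3.24, 4.04 and 1.94 FPKM in mEpiSC, against 0.353, 0.218, 0.127 and 0.166 FPKM in mESC, and rose by log2 1.79 (SE 0.19; limma, adjusted p = 2.8e-04). Of the A exons on either side of it, Pcdhga9 fell in the fit without the filter, at 0.0460 to 0.220 FPKM in mEpiSC and 0.234 to 0.331 FPKM in mESC, and Pcdhga10 overlapped between states. Pcdhgb7 was at 2.16 to 2.94 FPKM in mEpiSC and 0.576 to 0.857 FPKM in mESC (log2 1.04, SE 0.13). Pcdhgb8 overlapped, with 3.24 FPKM in mEpiSC 1 and 1.41 FPKM in mESC 4, and did not pass (log2 0.51, 95% interval −0.07 to 1.09; limma, adjusted p = 0.15). Pcdhgb5 was at 2.65 to 3.24 FPKM in EpiSC7 and EpiSC9, at 0.365 FPKM in EpiSC5, and at 0.102 to 0.782 FPKM in mESC. Without the filter, 4 of 7 gamma B entries rose and none fell, and all 3 gamma C entries rose, against 16.9% of all genes. The other members at 1 FPKM in some library were Pcdhga4 (1.06 FPKM in mEpiSC 4), Pcdhga7 (1.02 in mESC 4), Pcdhgb2 (1.05 in mEpiSC 2) and Pcdhgb4 (1.15 in mEpiSC 2).

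**Figure D3:**
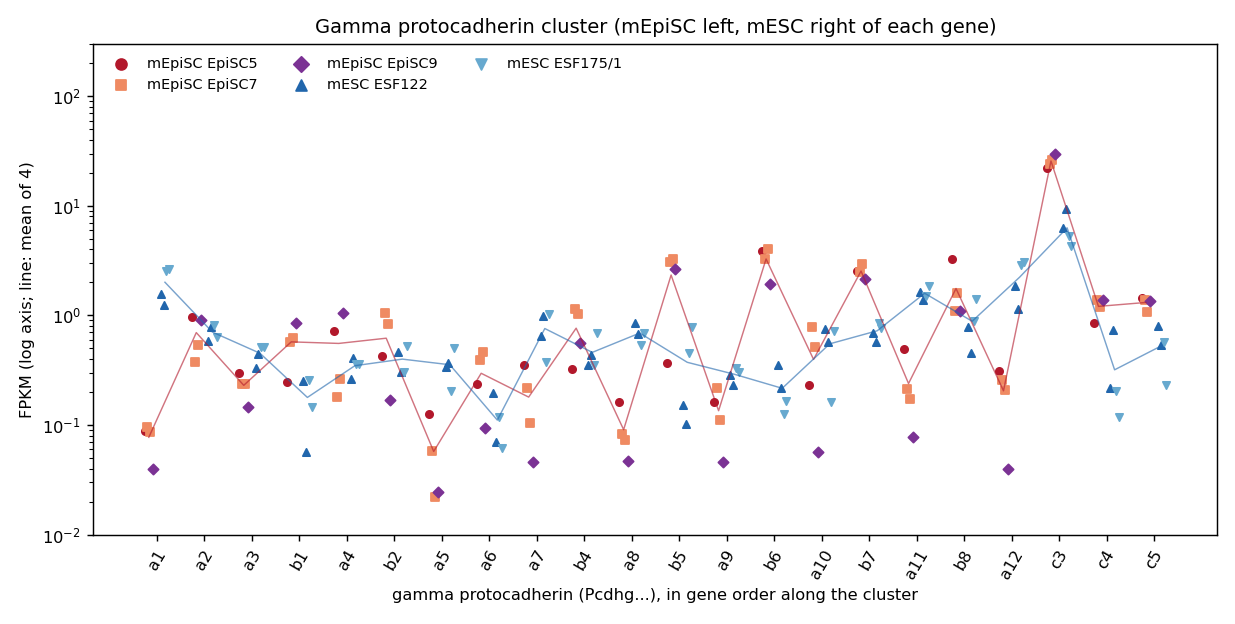
FPKM (y axis, log) of the 22 gamma protocadherin entries in gene order along the cluster (x axis), in each library, with mEpiSC to the left of mESC and lines through the means of 4. The mEpiSC line dips at a1, a5, a8, a9, a11 and a12 and peaks at b5, b6, b7 and c3, where c3 reaches 22.3 to 29.8 FPKM.

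The beta cluster, whose genes are single exons that share few windows (at most 12%), was low throughout and higher in mEpiSC. The summed level of its 22 genes was 6.21, 4.72, 5.76 and 13.8 FPKM in mEpiSC, against 0.673, 0.691, 0.527 and 0.480 FPKM in mESC. No library overlapped. No gene passed the filter, but in the fit without it 8 of 22 rose, against 16.9% of all genes, and none fell. In 15 of 22 every mEpiSC library lay above every mESC library, against 18.5% of all genes. Some of the 15 rest on few fragments. Pcdhb9 had 2 to 13 implied fragments a library in mEpiSC and 0 in mESC, and Pcdhb10 had 2 to 36 in mEpiSC and 0 to 1 in mESC. The beta genes at 1 FPKM in some library were Pcdhb14, Pcdhb18, Pcdhb20, Pcdhb21 and Pcdhb22, all highest in mEpiSC 4. Pcdhb22, the last gene of the array, was at 1.22, 0.936, 1.00 and 2.47 FPKM in mEpiSC, against 0.203, 0.251, 0.179 and 0.1696 FPKM in mESC. Pcdhb18 was at 0.660 to 1.42 FPKM in mEpiSC and 0.0119 to 0.0552 FPKM in mESC. The 8 that rose were Pcdhb15 to Pcdhb22, the end of the array.

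The alpha cluster was close to 0 except in EpiSC9. Its 15 entries summed to 0.499, 0.395, 0.408 and 6.92 FPKM in mEpiSC 1 to 4, against 0.309, 0.503, 0.208 and 0.102 FPKM in mESC 1 to 4. Among them is Pcdha4-g, whose interval (37112395 to 37999854) runs across the beta cluster into the gamma cluster. It was at 0.270 FPKM in mEpiSC 4. In mEpiSC 4, 14 of 15 entries reached 0.1 FPKM, and 2 of 15 did so in at least 1 of the other libraries. Pcdha10 was highest at 1.19 FPKM, on 231 implied fragments, against at most 0.0195 FPKM in the other mEpiSC and 0.0237 FPKM in mESC. Pcdhac2, a C-type alpha exon, had 0.166 to 0.328 FPKM in mEpiSC and 0.0870 to 0.263 FPKM in mESC and was at its lowest among mEpiSC in mEpiSC 4. None of the 15 passed the state test without the filter. Alpha entries share 44.6% to 96.7% of their windows with other genes (13 of 15 matched), so the level of each entry is uncertain.

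**Figure D4:**
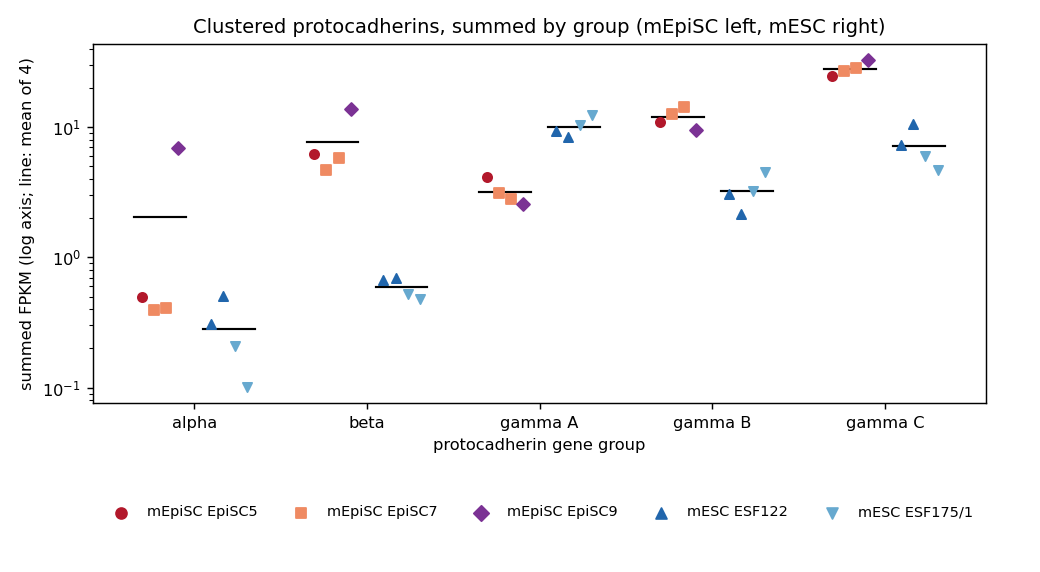
Summed FPKM (y axis, log) of the alpha, beta, gamma A, gamma B and gamma C protocadherins (x axis) in each library, with mEpiSC left of mESC and a bar at the mean of 4. The beta, gamma B and gamma C sums are higher in every mEpiSC library and the gamma A sum is lower; the alpha sum stands at 6.92 FPKM in EpiSC9 and at or below 0.503 FPKM elsewhere.

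Lines within a state were compared in a fit with 1 mean per line. Among EpiSC5, EpiSC7 and EpiSC9, 3 of the 20 tested members differed (F test in limma, adjusted p under 0.05, a call made for 2.6% of all genes): Pcdh7 (adjusted p = 0.025) and Cdh1 (0.032), both highest in EpiSC5, and Cdh24 (0.034), highest in EpiSC7. At an unadjusted p under 0.05 there were 8 of 20, against 24.7% of all genes. EpiSC5 and EpiSC9 have 1 library each, so their spread was taken from the lines with 2. No member of the 3 passed without mEpiSC 2 or without mEpiSC 3. Cdh1 and Cdh24 did not pass without mESC 1 or mESC 2. Leaving out mEpiSC 1 or mEpiSC 4 removes all of EpiSC5 or EpiSC9 and compares only the remaining lines, so it cannot check these calls. In those fits Cdh1 and Pcdh7 did not pass without mEpiSC 1, nor Cdh24 without mEpiSC 4. Without the filter 27 of 94 members differed, against 2.39% of all genes, and 13 of these were alpha and 10 beta entries; their difference rests on the single library of EpiSC9, which no second library of that line checks.

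Between ESF175/1 and ESF122 none of the 20 passed (limma, contrast of line means; 0.762% of all genes did), nor any of the 94 without the filter (0.4% of all genes), and 10 had an unadjusted p under 0.05, against 14.9% of all genes. Of those, Cdh6 was at 0.114 and 0.183 FPKM in ESF175/1 and 0.944 and 0.710 FPKM in ESF122 (log2 −0.67, SE 0.18; adjusted p = 0.19, limma). Cdh13 and Pcdh7 were likewise lower in both ESF175/1 libraries. Pcdhga1 and Pcdhga12, also among the 10, went the other way and were higher in ESF175/1 (log2 0.58 and 0.67). Summed fibroblast markers were at 52.9 and 6.59 FPKM in ESF175/1 and at 274 and 37.9 FPKM in ESF122, so the lines overlapped. The part of fibroblast RNA in these differences was not tested.

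Genes that work with cadherins were read from 5 lists in the same fit. Of 21 tested catenin and adherens junction genes 4 rose and 3 fell, close to the 23.1% and 14.2% of all genes (median log2 fold change 0.16, against 0.08 for all genes). Ctnnb1, beta-catenin, which binds classical cadherins and carries Wnt signals, was at 353 ± 28.4 FPKM in mEpiSC and 235 ± 26.3 FPKM in mESC (SD, n = 4 each; log2 0.59, SE 0.13; limma, adjusted p = 0.0066). Alpha-catenin (Ctnna1) was at 86.8 ± 12.1 FPKM in mEpiSC and 88.3 ± 8.23 FPKM in mESC, with a log2 interval of −0.33 to 0.27. p120-catenin (Ctnnd1), which keeps cadherins at the surface, was at 51.2 ± 2.57 FPKM in mEpiSC and 51.7 ± 2.76 FPKM in mESC, with an interval of −0.24 to 0.21. Plakoglobin (Jup) fell by 0.61 on the log2 scale (SE 0.15), to 6.08 ± 0.880 FPKM in mEpiSC, against 9.85 ± 1.53 FPKM in mESC; its adjusted p was 0.012, and 0.055 under a random block for the cell line. Vinculin (Vcl), which joins stressed catenin complexes to actin, rose by log2 1.25 (SE 0.18), with 53.8 ± 5.38 FPKM in mEpiSC and 22.4 ± 6.05 FPKM in mESC.

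Of 5 tested desmosome genes 2 rose and 2 fell, against 23.1% and 14.2% of all genes. The table held 12 genes of this list, which was not counted alone without the filter. Desmocollin Dsc2 rose to 4.67 ± 2.04 FPKM in mEpiSC, against 0.920 ± 0.422 FPKM in mESC (log2 1.51, SE 0.29), and desmoglein Dsg2 fell to 5.33 ± 2.70 FPKM in mEpiSC, against 12.9 ± 3.35 FPKM in mESC (log2 −1.18, SE 0.28). Desmoplakin (Dsp) rose by log2 1.17 (SE 0.37) and plakophilin Pkp3 fell by 1.12 (SE 0.25). The rise of Dsp (adjusted p = 0.036) did not pass after median ratio scaling (0.057), after quantile normalization (0.063), without the filter (0.056), under a random block for the cell line (0.093), or without any 1 library other than mESC 2 and mEpiSC 4 (0.055 to 0.089).

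Of 9 tested atypical cadherins 5 rose and none fell, against 23.1% and 14.2% of all genes. The table held 16 genes of this list. Fat3, Dchs1 and Cdhr1, with mESC means of 0.292, 0.347 and 0.332 FPKM, passed the filter through mEpiSC. This list was not counted alone without the filter, so the count cannot be read as an excess over all genes. Fat3 (log2 1.52, SE 0.27) and Dchs1 (log2 1.45, SE 0.22), of the Fat and Dachsous families of planar polarity, rose to 2.80 ± 1.13 and 2.72 ± 0.881 FPKM in mEpiSC, against 0.292 ± 0.298 and 0.347 ± 0.255 FPKM in mESC. Cdhr1 rose by log2 1.03 (SE 0.24). Celsr2, a polarity cadherin with a seven-pass receptor form, rose by log2 1.32 (SE 0.46; limma, adjusted p = 0.0497) but did not pass in 12 of 19 other settings, where the adjusted p was up to 0.13.

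Of 12 tested genes for cadherin cleavage and turnover 7 rose and none fell, against 23.1% and 14.2% of all genes. Adam10, the sheddase of E- and N-cadherin, was at 21.6 ± 4.10 FPKM in mEpiSC and 8.92 ± 1.37 FPKM in mESC (log2 1.18, SE 0.16; limma, adjusted p = 9.7e-04). The membrane protease Mmp14, which fibroblasts also make, was at 55.3 ± 28.9 FPKM in mEpiSC and 9.62 ± 1.62 FPKM in mESC (log2 2.19, SE 0.44). Of 13 tested regulators of the clustered protocadherins 2 rose and 2 fell, which is near the 23.1% and 14.2% of all genes and shows nothing about the list. Rest, a repressor of neuronal genes, fell to 23.2 ± 8.98 FPKM in mEpiSC, against 51.8 ± 16.1 FPKM in mESC (log2 −1.15, SE 0.31; limma, adjusted p = 0.018; 0.051 without mESC 3).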

How the data were processed

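The members and gene lists were chosen with earlier results of these data known. The authors deposited FPKM per gene, 1 table for each library, with interval bounds and a status flag. TopHat2 2.0.6, Cufflinks 2.0.2 and mm9 are named per the submitters' processing notes. Neither annotation nor strand setting is given in the sources used here, so reads of overlapping or antisense genes cannot be told apart. All 94 members had status OK in every library. Symbols at several loci (248, with 712 entries), none of them a member, were left out of the fits, leaving 22987 genes.

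FPKM are not counts, so limma 3.58.1 (trend and robust, statmod 1.5.0, R 4.3.3) was run on log2(FPKM + 1) for the 11556 genes that reached 1 FPKM in 4 or more libraries, with Benjamini-Hochberg adjustment over all of them. The code was tested on simulated data. Fragments behind a value were estimated from its deposited interval. Coordinates are the mm9 intervals of the tables, counted from 1. Values are named for every tested member and every member at 1 FPKM in some library; in the junction lists, for up to 4 genes past a 2-fold change and 4 catenins. Other members named were chosen after their values were seen. Other marker lists: of 5 tested neural markers 1 rose and 1 fell, of 4 tested primitive endoderm markers all rose, of 3 tested trophoblast markers 1 fell, and no endothelial marker was tested. Shared windows came from GENCODE vM21 transcripts (GRCm38), 92 of 94 members matched, and promoters from RefSeq (GRCm38.p6).

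The states share replicate numbers. After subtracting group means, the libraries numbered 1, 2, 3 and 4 correlated with their namesakes at 0.22, 0.15, 0.19 and 0.51. Each exceeded 0.1, but replicates 2 and 3 each correlated more with a library of another number (0.19 and 0.21). No label states a pairing. The fits reported treat the libraries as unpaired, without a block for the replicate number. Fits with the replicate block were made beside them. Other settings were pseudocounts of 0.1 and 5, other filters, scalings and blocks, and leaving out libraries.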

Additional observations from a re-analysis of the deposited data

Results flagged for a closer look

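In each state the highest or lowest of 4 libraries was set against the other 3 for 36 genes, 6 cluster sums and the Cdh1 to Cdh2 ratio. Of 86 such groups, 9 had 1 library standing apart. Chance flags about 1 group in 20 where groups are independent and values normal. The groups here are not independent, as the sums hold genes also read singly. Of the genes, 16 were below the filter and included for reaching 1 FPKM in some library. The 9 of 86 can thus not be read as an excess over that rate. It does not apply at all to Pcdha10, to Pcdhb14 or to the sums that hold them, since both genes were included because of their level in mEpiSC 4. mEpiSC 4 (EpiSC9) stood apart for 5 of the 9. Its alpha protocadherin sum was 6.92 FPKM, against 0.395 to 0.499 FPKM in the other mEpiSC, and its beta sum was 13.8 FPKM, against 4.72 to 6.21 FPKM. Pcdha10 was at 1.19 FPKM there, against at most 0.0195 FPKM, and Pcdhb14 at 1.03 FPKM, against 0.0893 to 0.130 FPKM. Pcdhga1 was the exception in direction, lowest at 0.0392 FPKM, against 0.0866 to 0.0953 FPKM. mEpiSC 1 (EpiSC5) stood apart for Pcdh7, at 15.9 FPKM, against 1.83 to 2.91 FPKM in the other mEpiSC. mESC 2 stood apart among mESC for Cdh2, at 2.72 FPKM, against 0.876 to 1.06 FPKM, for Pcdhgc4, at 0.735 FPKM, against 0.118 to 0.216 FPKM, and for Pcdha10, at 0.0237 FPKM on 4 implied fragments. The same library stood apart for the primed markers T, at 38.8 FPKM, against 1.95 to 2.94 FPKM in the other mESC, Fgf5, at 8.61 FPKM, against at most 1.64 FPKM, and Cer1, at 6.29 FPKM, against at most 0.632 FPKM. The other primed markers, Otx2, Pou3f1 and Dnmt3b, were highest among mESC in mESC 1.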

How the results depend on the processing

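All 20 tested members kept their direction in each of 20 other settings in which they were tested. In 363 of 386 such refits the call was also unchanged; it was lost in 18, for Cdh10, Pcdh1 and Pcdh7, and gained in 5, for Cdh24 and Pcdhgb8 (adjusted p = 0.021 with 1 mean per line). Of the members 26 rose and 9 fell with no filter, and 3 rose and 1 fell at a mean of at least 5 FPKM, where 6 were tested. Of all genes 1597 rose at that filter, where 8170 were tested, and 1046 fell under a random block for the cell line. Of the genes on the 5 junction lists 20 rose and 7 fell as reported; 13 rose at the stricter filter, 12 rose and 3 fell with the random block, and 3 to 7 fell without 1 library (3 without mESC 3, 4 without mESC 1 or mESC 2). Members differing among the mEpiSC lines were 3 as reported, 1 with a pseudocount of 0.1, 27 with no filter, 1 at the stricter filter and 0 to 3 without 1 library, a check chosen after seeing the data. Without mEpiSC 1 or mEpiSC 4 a whole line was missing from that comparison. Causes were not tested. Median ratio scaling moved the median of all genes from 0.08 to −0.05. Not past the test in any setting, Ctnna1 changed sign with the random block (log2 0.00053), with 1 mean per line (0.024) and without 1 library (−0.11 to 0.029), and Ctnnd1 without 1 library (−0.043 to 0.015). The replicate block changed no call of a member other than that of Cdh24. Levels under 0.1 FPKM rest on few fragments.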
